A study of Mus musculus with 797 samples.

Results

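The calcium/calmodulin-dependent kinases described here are 8 of the 32285 gene rows of a count table made from mouse brain nuclei. They were taken by symbol: Camk2a, Camk2b, Camk2d and Camk2g, which encode the alpha, beta, delta and gamma subunits of CaMKII; Camk4, Camk1 and Camk1d, which encode CaMKIV and 2 forms of CaMKI; and Camkk2, which encodes an upstream kinase. The study asked how technical and biological noise affects screens of many enhancers carried by adeno-associated virus (AAV). C57Bl/6J mice were injected in young adulthood with 5e11 vector genomes of an AAV in the capsid PHP.eB, which crosses the blood-brain barrier. The element in each vector drove H2B-SYFP2, a histone fused to a yellow protein, and nuclei positive for it were sorted by flow cytometry 3 to 4 weeks later. All groups therefore share the strain, the reporter, the capsid, the dose and the sort, and no uninjected group was used here. There were 797 nuclei, all with the tissue label striatum, and each of the 20 vector labels had 39 or 40. These are CMV (a viral promoter), hSyn1 (the human synapsin 1 promoter), DLX2.0 and hI56i (elements from the Dlx genes used to target forebrain GABAergic neurons), and the enhancers AiE0078h, AiE0140h, AiE0387m, AiE0390m, AiE0391h, AiE0401h, AiE0410m, AiE0445h_3xC2, AiE0447h, AiE0450h, AiE0452h, AiE0475m, AiE0600m, AiE0682h, AiE0743m_3xC2 and AiE0779m. No animal is named, so each vector label was treated as 1 sample, and p-values measure the spread between vector labels.

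Calcium that enters an active neuron binds calmodulin, and calcium-loaded calmodulin opens and activates these kinases. CaMKII assembles into a large ring of subunits, is very abundant at excitatory synapses, phosphorylates glutamate receptors and is central to long-term potentiation. CaMKIV works mainly in the nucleus, where it phosphorylates the transcription factor CREB. CaMKI acts in the cytosol, for example on the growth of axons and dendrites. CaMKIV and CaMKI both need phosphorylation by a CaMK kinase such as CaMKK2 for full activity, which makes the group a cascade.

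Because the 4 Camk2 genes are close relatives, the longest identical coding stretches are shown first: they bear on whether a read can be given to 1 of the genes. Between pairs of Camk2 coding sequences, identity ran from 75.7% for Camk2d and Camk2g to 79.1% for Camk2a and Camk2b. The longest identical run of any pair was 32 bases, between Camk2a and Camk2b, and no stretch of 50 bases was shared by any pair. The runs of the other genes are printed 5′ to 3′ on the coding strand, from GENCODE M21 transcripts, in lower case throughout since every base is shared. All positions are on mm10 with the GENCODE M21 annotation, counted from 1.
Camk2b and Camk2g, 29 bases: agagagtactacagtgaagctgatgccag
Camk2b and Camk2d, 23 bases: tacagtgaagctgatgccagtca
Camk2d and Camk2g, 23 bases: atcaacaatggggactttgaggc
The first run lies in exon 5 of Camk2b (chr11:5997883-5997911) and exon 5 of Camk2g (chr14:20770064-20770092). The second spans the junction of exons 5 and 6 in both genes. The third lies in exon 17 of Camk2d (chr3:126834621-126834643) and exon 19 of Camk2g (chr14:20739333-20739355).

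For Camk2b, higher in glutamatergic nuclei, and Camk2d, lowest in a deep-layer subclass, the 250 bases before a RefSeq transcript start are shown (RefSeq, GRCm38.p6). Capitals mark a GC box, GGGCGG on either strand.
Camk2b promoter: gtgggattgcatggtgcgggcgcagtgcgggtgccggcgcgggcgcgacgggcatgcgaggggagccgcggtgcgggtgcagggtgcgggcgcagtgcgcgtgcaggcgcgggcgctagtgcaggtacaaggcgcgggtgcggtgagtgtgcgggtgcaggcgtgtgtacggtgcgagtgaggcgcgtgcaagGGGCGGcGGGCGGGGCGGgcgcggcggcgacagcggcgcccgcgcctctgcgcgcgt
Camk2d promoter: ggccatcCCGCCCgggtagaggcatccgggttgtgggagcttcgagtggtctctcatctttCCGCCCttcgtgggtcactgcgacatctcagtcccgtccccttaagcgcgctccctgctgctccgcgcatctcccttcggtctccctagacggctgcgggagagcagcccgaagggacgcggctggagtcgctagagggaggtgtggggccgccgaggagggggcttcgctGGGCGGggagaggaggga
The Camk2b window is chr11:6065749-6065998 on the minus strand and the Camk2d window chr3:126596701-126596950 on the plus strand. Both lie inside the GENCODE spans of their genes, which begin upstream of the RefSeq start used here. Both windows held 3 GC boxes, some of those in Camk2b overlapping, and their GC content was 78.4% and 68.4%. Neither held a CRE half-site (TGACG, part of the site bound by CREB) or the E-box CAGATG on either strand. Among 32851 RefSeq promoters of the same length, 32.7% held a GC box, 17.8% the CRE half-site and 14.4% the E-box.

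Camk2a (ENSMUSG00000024617) lies at chr18:60925618-60988152 on the plus strand, Camk2b (ENSMUSG00000057897) at chr11:5969644-6066362 on the minus strand, Camk2d (ENSMUSG00000053819) at chr3:126596302-126846326 on the plus strand and Camk2g (ENSMUSG00000021820) at chr14:20734875-20794088 on the minus strand. Camk4 (ENSMUSG00000038128) lies at chr18:32934931-33191228 on the plus strand, Camk1 (ENSMUSG00000030272) at chr6:113334124-113343984 on the minus strand, Camk1d (ENSMUSG00000039145) at chr2:5293457-5714515 on the minus strand and Camkk2 (ENSMUSG00000029471) at chr5:122731170-122779409 on the minus strand. Camk1 overlaps Ogg1 on the other strand and Camk4 overlaps 2310026I22Rik, and the strand setting of the counting is not given in the sources used here, so reads in the overlaps cannot be assigned with certainty. The reads counted for Ogg1 amounted to 1.45% of those for Camk1, and the reads for 2310026I22Rik to 1.32% of those for Camk4.

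After nuclei under 50000 reads or 1000 genes were left out, 781 nuclei remained, with 50565 to 666436 reads each and a median of 292895. A nucleus was called glutamatergic where Slc17a7, which loads glutamate into synaptic vesicles in cortex, reached 10 CPM (counts per 1e6 gene reads) and Gad1 plus Gad2 did not, and GABAergic in the reverse case. This gave 385 glutamatergic and 310 GABAergic nuclei, 50 nuclei with both and 36 with neither. Only 15 nuclei lay within reach of the Slc17a7 threshold, 8 with a read but under 10 CPM and 7 from 10 to 50 CPM. Median depth was 279379 reads and 2679 genes in glutamatergic nuclei and 318172 reads and 3016.5 genes in GABAergic ones. The label striatum went against the markers. Of 8 genes of spiny projection neurons, the main striatal cell type, 5 were read in glutamatergic nuclei, in up to 16.6% of them (Ppp1r1b), and 6 in GABAergic nuclei, in up to 12.6% (Adcy5). Drd2 had no read in any glutamatergic nucleus and Adora2a none in any GABAergic one. The summed level of the 8 genes was 74.5 CPM in glutamatergic and 63.7 CPM in GABAergic nuclei. For 5 glutamatergic markers it was 1240 CPM in glutamatergic nuclei, and for 5 GABAergic markers 2177 CPM in GABAergic nuclei. Those lists include Slc17a7 or Gad1 and Gad2, which defined the classes, so their levels were partly set by the grouping. Nuclei came in 3 library sets by the prefix of the library name, called A (516 nuclei), B (178) and C (87). The mean mitochondrial share of reads was 1.17% in set B, against 0.0161% for A and 0.0144% for C, and all 78 nuclei over 1% were in set B, of which 34 were glutamatergic and 26 GABAergic. Class and library set were tied within many vector labels: in 9 of the 14 labels compared below, most nuclei of the 2 classes came from different sets. In AiE0390m, for example, 11 of 12 glutamatergic nuclei were in set B and 22 of 25 GABAergic nuclei in set A. A comparison of classes within a label is therefore partly one of library sets.

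Camk2a and Camk2b, which encode the CaMKII subunits typical of forebrain neurons, were higher in glutamatergic than in GABAergic nuclei. Reads of each class were summed per vector label in the 14 labels with at least 3 nuclei of both, and tested with edgeR's quasi-likelihood test with the vector label as a block. Of the 10873 genes tested, 7.43% passed an adjusted p of 0.05, 3.75% higher in glutamatergic and 3.68% higher in GABAergic sums. Of the 8 kinases, all of which were tested, 2 passed, both higher in glutamatergic sums. Their median log2 fold change was 0.95 over the 8 kinases and -0.27 over all genes tested.

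Camk2a sums ran from 38.7 through a median of 167.6 to 306.9 CPM in glutamatergic nuclei. In GABAergic nuclei they ran from 10.2 through 39.5 to 83.6 CPM. Glutamatergic sums were higher in 13 of 14 vector labels. The exception was AiE0682h, where 7 glutamatergic nuclei gave 38.7 CPM and 26 GABAergic nuclei 68.0 CPM, so that the groups overlapped. The log2 fold change was 2.25 (SE 0.425, adjusted p = 0.00103), a 4.76-fold difference.

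Camk2b, whose subunit also binds actin filaments in dendritic spines, ran from 91.3 through 405.0 to 737.7 CPM in glutamatergic sums. GABAergic sums ran from 49.9 through 167.4 to 466.7 CPM. It was higher in glutamatergic sums of 11 of 14 labels, and AiE0391h, CMV and hSyn1 went the other way. The log2 fold change was 1.05 (SE 0.267, adjusted p = 0.0141), or 2.08-fold.

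Both calls were kept when any 1 vector label was left out, with adjusted p up to 0.00344 for Camk2a and 0.0367 for Camk2b. Without library set B only 8 labels had both classes, 2.93% of genes passed and neither call was kept: Camk2a gave 1.62 (SE 1.003, adjusted p = 0.555) and Camk2b 0.74 (SE 0.326, adjusted p = 0.339). The unadjusted p was then under 0.05 for 2 kinases, Camk1 and Camk2b. Without the nuclei over 1% mitochondrial reads, where 5.69% of genes passed, Camk2a no longer did (1.97, SE 0.625, adjusted p = 0.0761) and Camk2b did (1.08, SE 0.310, adjusted p = 0.0475). Without those nuclei but with all labels and no block, where 8.40% of genes passed, 3 kinases did: Camk2a (2.06, adjusted p = 4.26e-05), Camk2b (1.11, adjusted p = 0.000496) and Camk4 (2.75, adjusted p = 0.0347). With sums per label and library set, where 2.14% of genes passed, neither did (Camk2a 1.29, adjusted p = 0.749; Camk2b 0.67, adjusted p = 0.617). In set A alone with the block, which left 5 labels and 0.528% of genes passing, neither passed (Camk2a 0.49, SE 1.49, adjusted p = 0.967; Camk2b 1.05, SE 0.452, adjusted p = 0.513).

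All labels of 1 set were also compared without the block, an analysis added after seeing the data. In set A, where 6.68% of genes passed, both kinases did: Camk2a at 1.86 (SE 0.458, adjusted p = 0.00807) and Camk2b at 0.95 (SE 0.185, adjusted p = 0.000721). In set B, where 2.02% of genes passed, Camk2a passed at 2.49 (SE 0.463, adjusted p = 0.00106) and Camk2b did not (1.14, SE 0.506, adjusted p = 0.472). In set C, where 0.410% of genes passed, neither did (Camk2a 1.91, adjusted p = 0.471; Camk2b 0.58, adjusted p = 0.9998). Other tools passed more kinases in the 14 labels, and more of all genes. DESeq2 passed 5 kinases (Camk1, Camk4 and Camkk2 as well) and 23% of genes. On log2(CPM + 1), limma passed 6 (Camk2d in addition) and 15% of genes, and on log2(CPM + 10) it passed the same 5 as DESeq2 and 15.2% of genes.

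The other CaMKII subunits did not pass this test. Camk2d, a subunit known best from heart muscle and present in brain, ran from 11.9 through 119 to 291 CPM in glutamatergic and from 113 through 177 to 450 CPM in GABAergic sums. Its log2 fold change was -0.65 (SE 0.404, adjusted p = 0.45), with glutamatergic sums higher in 5 of 14 labels. Camk2g, whose subunit can carry calmodulin from the synapse to the nucleus, had medians of 101 and 102 CPM, and its log2 fold change was -0.02 (SE 0.333, adjusted p = 0.988). Its sign depended on the setting, and each class was higher in 7 labels.

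Among the kinases of the cascade, Camk4 had the largest fitted difference, without passing. Glutamatergic sums ran from 0 through 71.6 to 185.1 CPM and GABAergic sums from 0 through 6.33 to 25.1 CPM, with 1 glutamatergic and 5 GABAergic sums at 0. Camk4 was higher in glutamatergic sums of 13 of 14 labels, again with AiE0682h as the exception. The log2 fold change was 4.57 (SE 1.46, adjusted p = 0.0606), a fitted value that depends on how the zeros are treated. Among the 14 fits that each left out 1 label, Camk4 passed in 1, without AiE0682h (adjusted p = 0.0190), and the adjusted p reached 0.136. It passed with no block (3.03, adjusted p = 0.0206), where 7.27% of genes did. It did not pass without set B (adjusted p = 0.469), in set A alone (0.839) or with sums per label and set (0.614).

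Camkk2, the upstream kinase, had a log2 fold change of 1.24 (SE 0.443, adjusted p = 0.104) and was higher in glutamatergic sums of 12 of 14 labels. Its medians were 95.2 CPM in glutamatergic and 54.7 CPM in GABAergic sums. Of 14 fits that each left out 1 label it passed in 1, without AiE0682h (adjusted p = 0.0246, against up to 0.207), and without set B it gave 0.81 (adjusted p = 0.832). Camk1 leaned the other way, from 100.5 through 158.4 to 463.0 CPM in glutamatergic and from 125.6 through 304.2 to 464.3 CPM in GABAergic sums. Glutamatergic Camk1 sums were higher in 3 of 14 labels (log2 fold change -0.62, SE 0.266, adjusted p = 0.205). Camk1d gave 0.85 (SE 0.466, adjusted p = 0.366), with medians of 87.1 and 46.3 CPM.

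**Figure D1:**
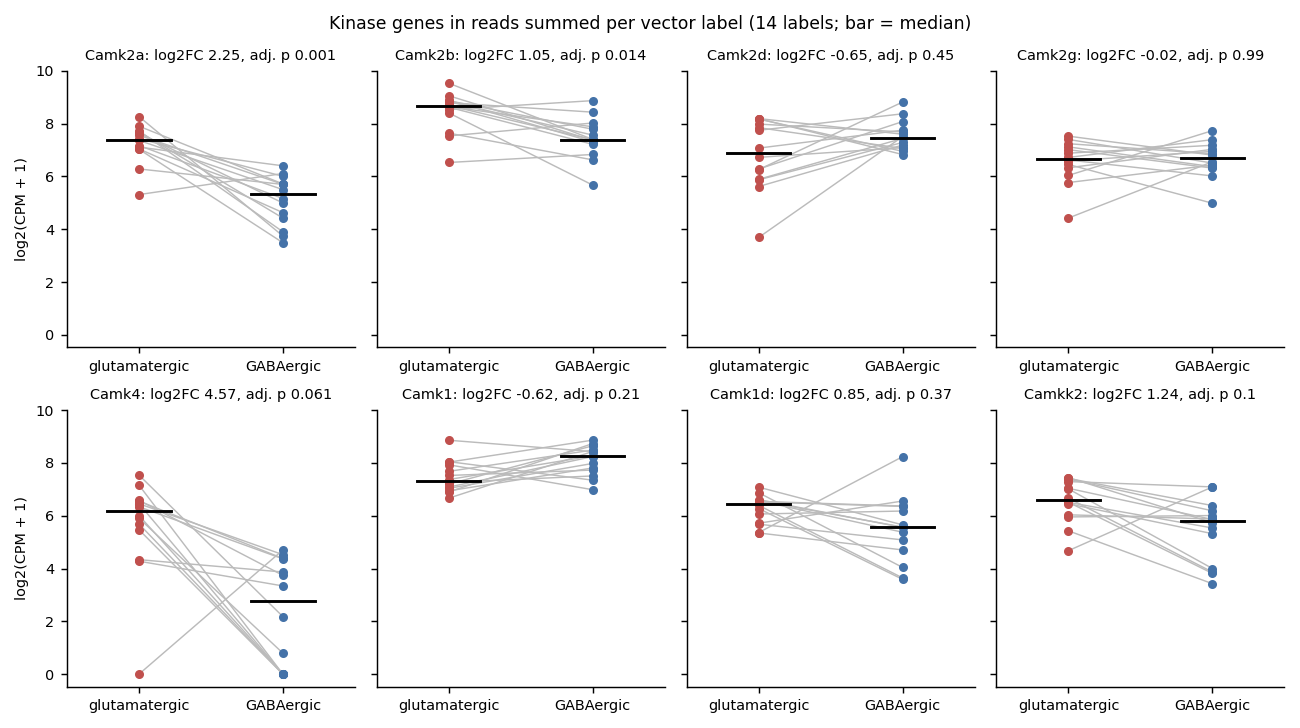
Level of each kinase gene, as log2(CPM + 1) of reads summed per vector label, in glutamatergic (red) and GABAergic (blue) nuclei of 14 vector labels; lines join the sums of 1 label, black bars are medians, and titles give the log2 fold change and adjusted p of edgeR's quasi-likelihood test. Most Camk2a lines fall from left to right, with 13 of 14 labels higher in glutamatergic sums, and Camk4 has 5 GABAergic sums at 0.

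Shares of nuclei with at least 1 read showed the same order. Intervals below are exact Clopper-Pearson 95% intervals over nuclei. They treat nuclei as independent and cover counting error only. Camk2a was read in 71.9% of glutamatergic nuclei (67.2 to 76.4) and 35.5% of GABAergic nuclei (30.2 to 41.1). With every nucleus thinned to 100000 reads the shares were 67.9% and 30.6%. Camk2b was read in 73.0% (68.3 to 77.4) and 53.9% (48.2 to 59.5). Thinned, its shares were 69.2% and 51.6%. Camk2a thus had the wider gap of the pair, mostly through its lower share in GABAergic nuclei.

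Camk4 was read in 41.8% of glutamatergic (36.8 to 46.9) and 10.6% of GABAergic nuclei (7.44 to 14.6), or 38.6% and 9.03% when thinned. Camkk2 was read in 53.5% (48.4 to 58.6) and 34.5% (29.2 to 40.1), or 52.0% and 31.9% when thinned. Both were read more often in glutamatergic nuclei, though neither passed the test on sums. Camk2d and Camk1 were read more often in GABAergic nuclei: Camk2d in 61.3% (55.6 to 66.7) against 44.9% (39.9 to 50.1), and Camk1 in 68.4% (62.9 to 73.5) against 50.9% (45.8 to 56.0). The thinned shares were 57.1% against 43.6% for Camk2d and 67.1% against 49.4% for Camk1. For Camk2g the shares were 47.5% of glutamatergic and 49.4% of GABAergic nuclei, and for Camk1d 28.1% and 27.4%, differences within their intervals. Nuclei of 1 label share their source, so these intervals are not a test between classes.

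Per kilobase of exon, which allows levels of different genes to be set side by side, Camk2b was the highest of the 8 in glutamatergic nuclei at 40.7 CPM per kb. Camk1 followed at 36.1, Camk2a at 23.9, Camk4 at 17, Camk2g at 15.3, Camkk2 at 9.60, Camk1d at 8.13 and Camk2d at 7.46 CPM per kb. In GABAergic nuclei Camk1 led at 54.5 CPM per kb, followed by Camk2b at 20.9, Camk2g at 15.8, Camk2d at 8.53, Camk1d at 6.33, Camkk2 at 5.50, Camk2a at 5.26 and Camk4 at 3.00 CPM per kb. Whether intronic reads were counted is not given in the sources used here. Intron length differs widely between these genes, so this order depends on that choice. The exon length used joins all annotated transcripts, at 22.5 kb for Camk2d and from 3.26 kb (Camk4) to 10.9 kb (Camkk2) for the others. The low place of Camk2d depends on this length. Neighbours in this order were not tested against each other.

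The make-up of the CaMKII reads differed between the classes. Camk2a made up 21.1% ± 8.72 (SD, n = 14 labels) of the reads of the 4 Camk2 genes in glutamatergic sums and 7.87% ± 5.30 in GABAergic sums. It was higher in 12 of 14 labels (exact two-sided sign-flip permutation test, p = 0.00159, adjusted over the 4 genes p = 0.00635). Camk2d made up 18.5% ± 11.7 and 36.8% ± 12.7, and was lower in glutamatergic sums of 12 labels (exact permutation p = 0.00342, adjusted p = 0.00635). Camk2g made up 13% ± 5.18 and 19.6% ± 6.33, again lower in 12 labels (exact permutation p = 0.00476, adjusted p = 0.00635). Camk2b, the largest part in glutamatergic sums, made up 47.4% ± 15 and 35.7% ± 13, a difference that did not pass (exact permutation p = 0.0531) but did as a mean of shares within nuclei (12.7 points, adjusted exact permutation p = 0.0326). Shares of 1 total are tied to each other, so a higher part for Camk2a lowers the others. Without set B, 8 labels remained and none of the 4 passed: the adjusted exact permutation p was 0.135 for Camk2a, 0.0625 for Camk2d and 0.383 for Camk2g. Scaled per kb of exon, the Camk2a part was 26.3% against 11%, Camk2d 7.94% against 17.5%, Camk2g 18.5% against 31.7% and Camk2b 47.2% against 39.8%. The size of the scaled Camk2d part depends on its exon length of 22.5 kb.

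**Figure D2:**
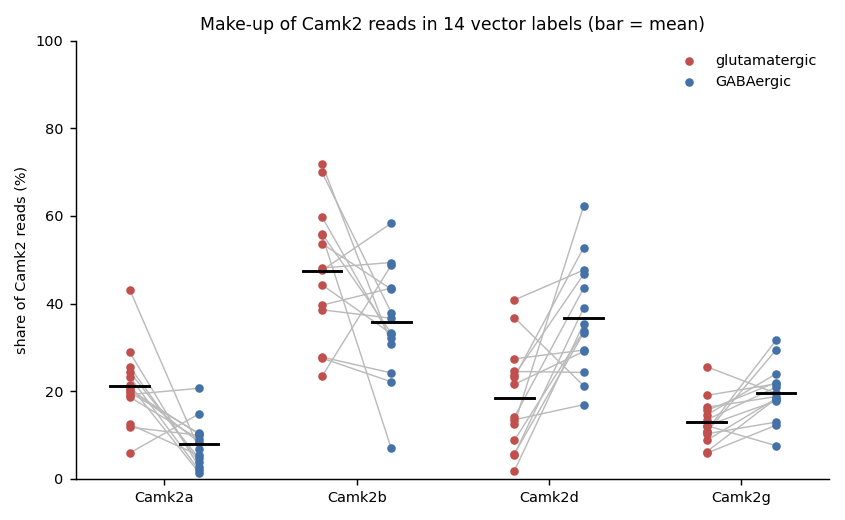
Share (%) of Camk2a, Camk2b, Camk2d and Camk2g in their summed reads, per vector label, in glutamatergic (red) and GABAergic (blue) nuclei; lines join 1 label and black bars are means over 14 labels. The Camk2a share averaged 21.1% in glutamatergic and 7.87% in GABAergic sums, and the Camk2d share 18.5% and 36.8%.

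Within single nuclei, the members were read in many combinations. A read of both Camk2a and Camk2b was found in 208 of 385 glutamatergic nuclei (54.0%) and in 74 of 310 GABAergic nuclei (23.9%). Neither was read in 35 glutamatergic and 107 GABAergic nuclei. No Camk2 gene at all was read in 12 glutamatergic and 19 GABAergic nuclei, so nearly every nucleus had a read of at least 1 CaMKII subunit. Of the 8 kinases, a mean of 4.12 ± 1.59 (SD over nuclei) were read per glutamatergic nucleus and 3.41 ± 1.53 per GABAergic nucleus. Thinned to 100000 reads, the means were 3.91 and 3.19. Across 385 glutamatergic nuclei, Pearson correlations of log2(CPM + 1) between members ran up to 0.23, for Camk2b and Camk1d. Each of that pair also correlated with the number of genes read, at 0.30 and 0.43.

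Among glutamatergic nuclei, Camk2d was the 1 kinase that passed a test between subclasses, at its lowest in Foxp2 nuclei. Each glutamatergic nucleus was given to whichever of Cux2 (a marker of upper cortical layers), Rorb (middle layers) and Foxp2 (deep layers) was highest at 10 CPM or more, which gave 75, 75 and 50 nuclei and left 185 in none. Camk2d was read in 62.7% of Cux2 nuclei (50.7 to 73.6), 49.3% of Rorb nuclei (37.6 to 61.1) and 16% of Foxp2 nuclei (7.17 to 29.1). Thinned to 100000 reads, the shares were 61.3%, 48.0% and 14%. In each library set the share was lower in Foxp2 than in Cux2 nuclei: 18.2% against 65.2% in A, 8.33% against 64.7% in B and 20% against 50% in C. Most of the 50 Foxp2 nuclei were in set A, so the Foxp2 shares in B and C rest on few nuclei.

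Summed per vector label, Camk2d ran from 42.6 through a median of 239 to 503 CPM in 11 Cux2 sums. The 11 Rorb sums ran from 0.942 through 105 to 303 CPM. The 9 Foxp2 sums were 0 in AiE0078h, AiE0410m, AiE0445h_3xC2 and AiE0743m_3xC2, 0.633 in AiE0140h, 1.29 in AiE0447h, 3.77 in AiE0391h, 53.7 in AiE0387m and 142 CPM in AiE0401h. Most Foxp2 sums thus held almost no Camk2d, and 1 nucleus gave 48.2% of all Camk2d reads of Foxp2 nuclei. Cux2 sums were higher than Foxp2 sums in all 8 labels that had both. Of the 9111 genes tested between Cux2 and Foxp2 sums, 0.878% passed (0.680% higher and 0.198% lower in Cux2). Among the 8 kinases Camk2d alone passed, with a log2 fold change of 6.88 (SE 1.5, adjusted p = 0.0127). The 4 Foxp2 sums at 0 make the fitted size depend on the prior count. Between Rorb and Foxp2 sums, where 0.724% of genes passed, no kinase did. Camk2d gave 5.40 there (SE 1.44, adjusted p = 0.0644), was the 1 kinase with an unadjusted p under 0.05, and passed with DESeq2, where 8.30% of genes did, and with limma on log2(CPM + 1), where 2% did. Between Cux2 and Rorb sums 0.0110% of genes passed, and none of the kinases did, with DESeq2 and limma included (Camk2d 1.48, SE 1.13). No kinase had an unadjusted p under 0.05 there by edgeR.

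The Camk2d call was kept without any 1 label (log2 fold change 6.24 to 8.16, adjusted p up to 0.0468). It was lost without set B (9.09, adjusted p = 0.269), in set A alone (9.81, adjusted p = 0.277), without nuclei over 1% mitochondrial reads (6.48, adjusted p = 0.0845) and with no block (3.59, adjusted p = 0.0618). With all labels and no block it was lost in set A (2.77, SE 1.43, adjusted p = 0.996) and without nuclei over 1% mitochondrial reads (3.39, adjusted p = 0.147). It was kept with sums per label and library set (10.99, adjusted p = 0.0152), with exactly 1 subclass marker (adjusted p = 0.0353) and with at least 5 nuclei per sum (adjusted p = 0.00989).

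No other kinase passed between these subclasses. Camk2a was read in 84.0% of Cux2, 76.0% of Rorb and 62.0% of Foxp2 nuclei, with median sums of 206.6, 163.8 and 76.6 CPM, and Cux2 minus Foxp2 gave 1.43 (SE 0.855, adjusted p = 0.762). Camk2g had the reverse order, read in 42.7%, 48.0% and 64.0%. Camk4 was read in 46.7%, 44.0% and 50.0% of the same subclasses and Camk2b in 66.7%, 76.0% and 64.0%. The CaMKII inhibitor gene Camk2n1, which is not one of the 8 kinases, was lowest in Foxp2 nuclei as well. Camk2n1 was read in 81.3% of Cux2, 74.7% of Rorb and 40% of Foxp2 nuclei. Its log2 fold change was 3.73 for Cux2 minus Foxp2 (SE 0.821, adjusted p = 0.0135) and 3.15 for Rorb minus Foxp2 (SE 0.759, adjusted p = 0.0343). Neither passed without set B (3.05, adjusted p = 0.514, and 2.10, adjusted p = 0.745) or with no block (2.24, adjusted p = 0.214, and 2.67, adjusted p = 0.0707). Both were also lost without nuclei over 1% mitochondrial reads (adjusted p = 0.213 and 0.416), with sums per label and set (0.271 and 0.541) and with exactly 1 subclass marker (0.153 and 0.774).

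**Figure D3:**
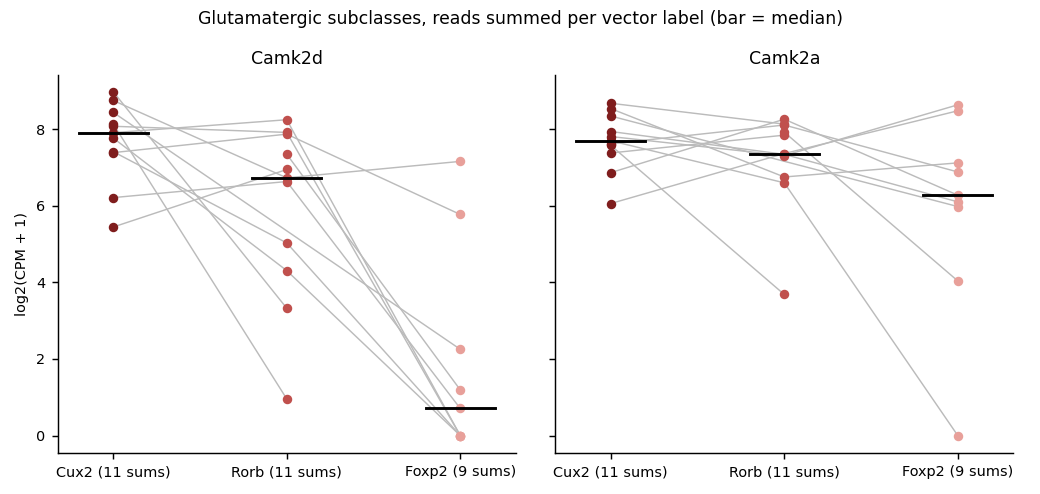
Level of Camk2d and Camk2a, as log2(CPM + 1) of reads summed per vector label, in Cux2, Rorb and Foxp2 glutamatergic nuclei; lines join sums of 1 label and black bars are medians. In Foxp2 sums Camk2d is at 0 in 4 of 9 labels and reaches 142 CPM in 1.

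GABAergic nuclei were divided in the same way by Pvalb (137 nuclei), Sst (104) and Adarb2 (52), genes that mark the main interneuron groups. No kinase passed between Pvalb and Sst sums, between Pvalb and Adarb2 sums or between Sst and Adarb2 sums, where 1.83%, 3.53% and 1.12% of 11114 genes passed. The median log2 fold change of all genes tested was 0.48, 1.18 and 0.65 there, higher in the subclass named first. A median of 2474 genes was read in Adarb2 nuclei, against 3366 in Pvalb and 2829.5 in Sst nuclei. The unadjusted p was under 0.05 for Camk1d alone, between Pvalb and Adarb2 (log2 fold change 4.43, SE 2.10, adjusted p = 0.249). In the comparisons of Pvalb and of Sst with Adarb2, DESeq2 passed Camk1d and no other kinase, along with 21.2% and 13.1% of all genes. There limma tested 7 of the 8 kinases and passed none, with 9.75% and 3.70% of genes passing. Camk1d was read in 32.1% of Pvalb nuclei (24.4 to 40.6), 33.7% of Sst nuclei (24.7 to 43.6) and 7.69% of Adarb2 nuclei (2.14 to 18.5), and 5 of 8 Adarb2 sums were at 0. Thinned to 100000 reads, its shares were 30.7%, 32.7% and 7.69%.

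Shares of other members are given as a description. Camk2a was read in 37.2%, 37.5% and 28.8% of Pvalb, Sst and Adarb2 nuclei, Camk4 in 9.49%, 12.5% and 13.5%, Camk1 in 68.6%, 75% and 50%, and Camk2g in 56.2%, 47.1% and 38.5%. Camk2d made up 49.5% of the CaMKII reads of Adarb2 nuclei, against 36.4% in Pvalb and 27.8% in Sst nuclei. Among glutamatergic subclasses the Camk2d part was 29.3% in Cux2, 16% in Rorb and 7.60% in Foxp2 nuclei. These group sums were not tested.

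**Figure D4:**
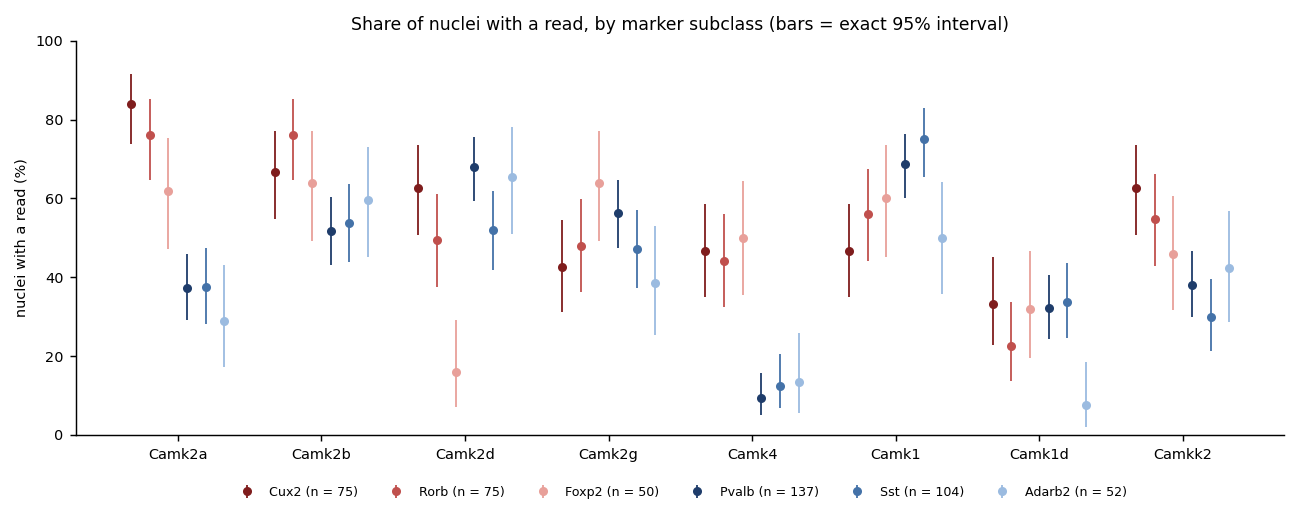
Share (%) of nuclei with at least 1 read of each kinase gene, in the 6 marker subclasses, with exact 95% intervals; reds are glutamatergic and blues GABAergic subclasses. Camk2d in Foxp2 nuclei (16%) and Camk1d in Adarb2 nuclei (7.69%) lie below the other subclasses of their class, and Camk4 is read in at most 13.5% of any GABAergic subclass.

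Shares also moved with the mitochondrial reads of set B. Among glutamatergic nuclei of set B, Camk2a was read in all 34 nuclei over 1% mitochondrial reads and in 67.2% of the 64 others. Among GABAergic nuclei of set B it was read in 96.2% of 26 nuclei over 1% and 46.9% of the 32 others. For Camk1d the shares were 88.2% over 1% and 29.7% otherwise in glutamatergic nuclei, and 73.1% and 25% in GABAergic ones. For Camk2g they were 97.1% and 59.4%, and 84.6% and 50.0%. The Camk2d intervals of the 2 groups overlapped in both classes, at 58.8% and 43.8% in glutamatergic and 61.5% and 59.4% in GABAergic nuclei.

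In set A, which held no nucleus over 1%, Camk2a was read in 68.7% of glutamatergic and 28.3% of GABAergic nuclei. In set C the shares were 75% and 24.2%, and in set B 78.6% and 69.0%. The gap between these shares was narrowest in set B, where nearly all nuclei over 1% had a read, while the fitted difference in Camk2a level was 2.49 in set B, 1.86 in A and 1.91 in C. Transcripts of abundant cytoplasmic genes (Rplp0, Rps3, Eef1a1 and Actb) averaged 4.73 on the log2(CPM + 1) scale in set B, against 2.78 for A and 3.05 for C. The part of cytoplasmic or mitochondrial RNA in these shares was not tested.

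**Figure D5:**
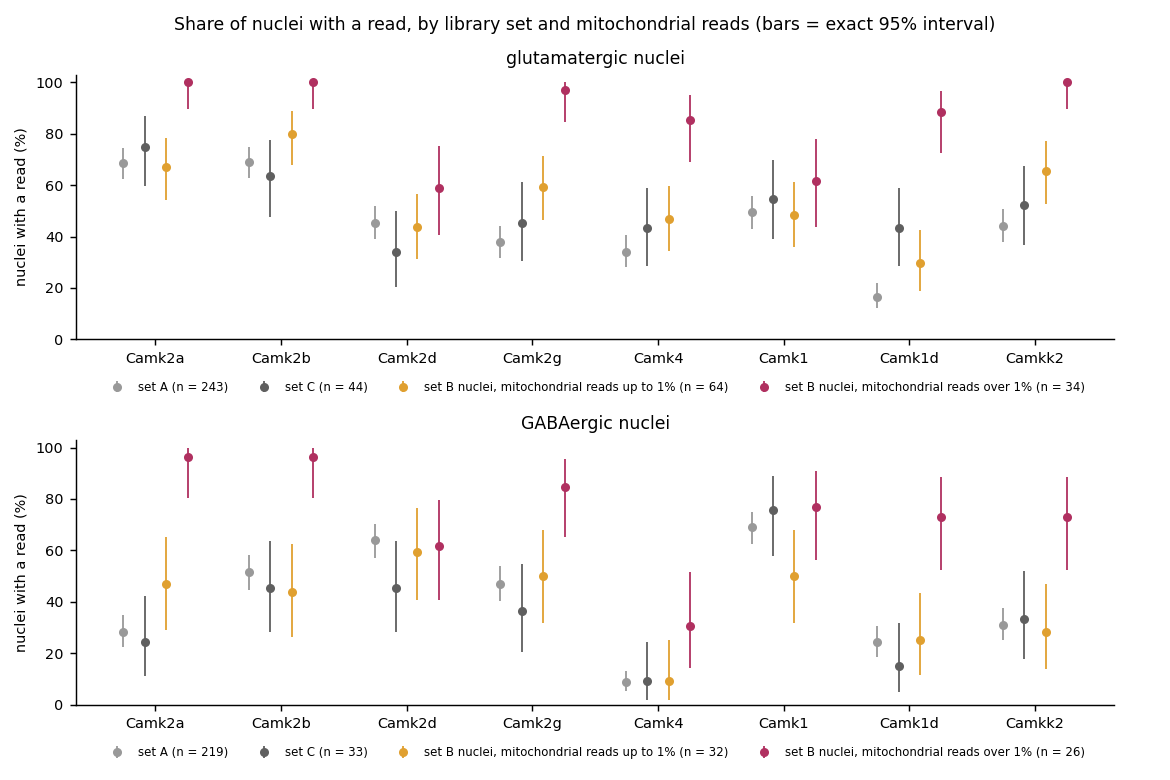
Share (%) of nuclei with at least 1 read of each kinase gene, with exact 95% intervals, in glutamatergic (top) and GABAergic (bottom) nuclei of set A, set C and set B, the last divided at 1% mitochondrial reads. Set B nuclei over 1% (purple) are highest for most genes, reaching 100% for Camk2a, Camk2b and Camkk2 in glutamatergic nuclei.

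Vector labels differed in their mean kinase levels, with a wide spread over the nuclei of each label. In the 14 labels with at least 10 glutamatergic nuclei, the mean log2(CPM + 1) of Camk2a ran from 4.13 (AiE0390m) through a median of 5.04 to 6.65 (AiE0475m), while the median SD over nuclei of a label was 3.56. Camk2b ran from 3.13 (CMV) to 8.11 (AiE0390m) and Camk4 from 1.46 (AiE0410m) to 3.86 (AiE0743m_3xC2). Several of these labels drew their glutamatergic nuclei mostly from set B or C, 11 of 12 from B in AiE0390m, 12 of 13 from C in CMV and 10 of 14 from C in AiE0475m. Within set A, over 11 labels, Camk2a ran from 3.05 (AiE0743m_3xC2) to 5.97 (AiE0401h). Camk2b ran there from 3.57 (AiE0401h) to 7.35 (AiE0387m) and Camk4 from 0.19 (hSyn1) to 2.95 (AiE0743m_3xC2). AiE0390m, CMV and AiE0475m had 1 glutamatergic nucleus each in set A, under the 10 required, and could not be among these labels. In the 13 labels with at least 10 GABAergic nuclei, Camk2a ran from 1.10 (AiE0452h) through 1.95 to 4.30 (AiE0391h). AiE0391h also had the highest GABAergic means of Camk2b (7.09), Camk2g (5.58), Camk4 (1.40), Camk1d (3.86) and Camkk2 (4.21), from 11 nuclei. All 11 were in set B, with a mean mitochondrial share of 2.47% and a mean of 8.19 for the 4 cytoplasmic genes above, against 0.00205% to 0.870% and 2.21 to 4.59 in the other 12 labels. The part of these in the AiE0391h levels was not tested. Within set A alone, the GABAergic range of Camk2a was 0.34 (AiE0452h) to 2.67 (AiE0743m_3xC2), over 10 labels. AiE0391h had no GABAergic nucleus in set A and could not be among them. With 1 sample per vector label, no test between vectors was possible.

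The genes whose levels were most like a member's were ranked by Pearson correlation of log2(CPM + 1) over 34 sums of 1 vector label and class, among 10130 genes, as a description. The sums share library sets and the class difference, which can raise such values, or lower them for genes that differ in opposite directions. Camk2a was most like Ttyh1 (0.87), 9130024F11Rik (0.85) and Sv2b (0.85), a synaptic vesicle protein gene. Camk2b was most like Lzts3 (0.84), Arpc2 (0.82) and Ralyl (0.80), and Camk2d most like Sec13 (0.78). Camk4 was most like Inka2 (0.81), Plekhg5 (0.79) and Gm2824 (0.78), and Camkk2 most like Pitpnm2 (0.75), Ppm1l (0.74) and Plekhg5 (0.73). Between the members themselves, 12 of 28 pairs had a positive and 16 a negative value, from -0.43 for Camk1 with Camk1d and -0.41 for Camk2b with Camk2d to 0.69 for Camk2a with Camk4 and 0.72 for Camkk2 with Camk4. Camk1 was most like Lamtor4 (0.75), Camk1d most like Nptxr (0.75) and Camk2g most like Rfc1 (0.68).

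Around the kinases, 43 genes of the pathway were tested between the classes, of which 8 were higher and 4 lower in glutamatergic sums, where 3.75% of all genes tested were higher and 3.68% lower. Their median log2 fold change was 0.53, against -0.27 for all genes. Calmodulin and its buffers held 3 genes that were higher, of 6: Nrgn (neurogranin, a postsynaptic calmodulin-binding protein) by 3.84 (SE 0.280, adjusted p = 5.28e-09), Gap43 by 1.70 (adjusted p = 0.0286) and the calmodulin gene Calm2 by 0.97 (adjusted p = 0.0230). Nrgn was read in 98.7% of glutamatergic and 62.9% of GABAergic nuclei. Of 2 CaMKII inhibitor genes, Camk2n1 was higher (1.88, adjusted p = 0.0483) and was read in 68.6% and 44.5% of nuclei.

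Calcineurin, the calcium-dependent phosphatase that opposes these kinases, had 1 gene higher and 2 lower of 7. Its catalytic subunit gene Ppp3ca was higher in glutamatergic sums by 1.42 (adjusted p = 0.000638), and the calcineurin regulator genes Rcan2 (-1.84, adjusted p = 0.0185) and Rcan3 were lower. Rcan3 was read in 1.56% of glutamatergic and 21.9% of GABAergic nuclei (adjusted p = 0.00115). Of 8 other genes of calcium/calmodulin kinases and related proteins, Camkv (1.51, adjusted p = 0.00289) and Dclk1 (0.98, adjusted p = 0.00113) were higher and Dclk2 was lower (-3.46, adjusted p = 0.00541). Of 7 synaptic partners of CaMKII, the NMDA receptor gene Grin2b was higher (0.69, adjusted p = 0.0109) and the AMPA receptor gene Gria1 lower (-1.08, adjusted p = 0.00819). None of 13 nuclear targets passed with edgeR, and their median was -0.14. Of these, 1 had an unadjusted p under 0.05 (Mef2c), DESeq2 passed 1 (Crem), where it passed 23% of all genes, and limma none, where it passed 15% to 15.2%. Without set B, 4 of the pathway genes were higher (Calm2, Camkv, Nrgn, Ppp3ca) and 1 lower (Gria1) of 41 tested, where 2.93% of all genes passed. Without the nuclei over 1% mitochondrial reads 5 were higher (Calm2, Dclk1, Grin2b, Nrgn, Ppp3ca) and 3 lower (Dclk2, Gria1, Ppp3cc) of 42, where 5.69% of all genes passed, so that Camk2n1, Camkv, Gap43, Rcan2 and Rcan3 did not pass there. With all labels and no block, 11 were higher and 4 lower of 43 in set A (6.68% of all genes passed), and Nrgn alone was called, as higher, of 41 in set B (2.02%) and of 40 in set C (0.410%).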

How the data were processed

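Single nuclei were profiled with SMART-Seq v4 and Nextera XT libraries, per the labels' protocols. The authors deposited raw counts of reads for each gene in each nucleus; reads carry no molecular identifiers. STAR 2.7.2a and mm10 are named in the submitters' processing notes. Not given in the sources used here are the counting tool, the annotation, the strand setting and the treatment of introns, which would change the levels of long genes. Of 2501 columns, 797 matched the samples by library name and 1704 were not used here. Symbols were given to 32158 of 32285 gene rows, and those without one held 0.0931% of reads. No pair of nuclei had identical counts.

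Nuclei with fewer than 50000 reads or 1000 genes were left out (16 of 797). CPM is counts per 1e6 gene reads of a nucleus or of a sum, and levels are log2(CPM + 1). Counts were summed per vector label and class, with at least 3 nuclei per sum, and tested with edgeR 4.0.16 (R 4.3.3; TMM scaling, filterByExpr, quasi-likelihood test, Benjamini-Hochberg adjustment over all genes tested, threshold 0.05) with the vector label as a block. Both classes were read in the same vector labels, which is where the pairing comes from, but often in different library sets, which the block does not pair; the numbers in the sample titles only count nuclei and pair nothing. Shares of nuclei have exact Clopper-Pearson 95% intervals and were repeated after thinning to 100000 reads. For a count of 0, an approximate limit of 3 nuclei of the total was used in place of the interval. Shares of Camk2 reads were compared with exact sign-flip permutation tests over labels (scipy 1.17.1). For edgeR, SE is the size of the log2 fold change divided by the square root of the F value of its test. It is not an error estimated by the fit, and is least reliable for genes with sums at 0. Only the edgeR and DESeq2 fits of the classes and of the glutamatergic subclasses were tried on simulated sums. Those sums held no differences between vector labels or library sets, so they cannot show how the fits handle such differences. Each library held 1 sorted nucleus, so doublets were not called.

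All 8 kinases are named in the class comparison and those that passed in the subclass comparisons; of each pathway list, at most 4 genes that passed are named by size of the fold change; the 3 genes most like a member are those with the highest correlation, among genes with a mean of at least 10 CPM. The members, the lists and the rules were chosen with earlier results of these data known. Alternatives were DESeq2 1.42.0, limma 3.58.1 on mean log2(CPM + 1) and log2(CPM + 10), other scaling, filters, marker thresholds, library sets and fits without each vector label.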

Additional observations from a re-analysis of the deposited data

Results flagged for a closer look

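In the sums per vector label, 4 of the 16 groups of 4 to 10 sums that were examined held a value far from the others by Dixon's criterion. For independent normal values chance alone meets it in about 1 of 20 groups. Sums of few nuclei are not such values, with 5 of 8 Camk4 Adarb2 sums at 0, so the count cannot be set against that rate. Levels here are log2(CPM + 1). Camk2b was at 3.79 in the Adarb2 sum of hI56i, with the other 7 sums from 6.35 to 8.43. Camk4 was at 6.27 in the Adarb2 sum of AiE0390m, with the others from 0 to 0.92. In the Foxp2 sum of AiE0447h, which held 3 nuclei, Camk2g was at 1.19 (others 6.09 to 8.47) and Camk4 at 1.19 (others 3.77 to 6.30). The causes were not tested.

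Kinase reads were also found in nuclei that entered no comparison. In the 50 nuclei with markers of both classes, Camk2a was read in 56.0%, Camk2b in 72.0%, Camk2d in 48.0%, Camk2g in 50.0%, Camk4 in 22%, Camk1 in 48.0%, Camk1d in 20% and Camkk2 in 46.0%. In the 36 nuclei with neither marker, Camk2d was read in 58.3%, Camk2b in 41.7%, Camk1 in 41.7%, Camk2g in 33.3%, Camk2a in 30.6%, Camkk2 in 19.4% and Camk1d in 11.1%. Camk4 was read in 2.78% of them, below the 8.33% that the approximate limit of 3 nuclei allows for a count of 0. Astrocyte markers summed to 6012 CPM in the nuclei with neither marker, against 29.2 CPM in glutamatergic nuclei, and 13 of these nuclei were over 1% mitochondrial reads. The part of either in the kinase reads was not tested.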

How the results depend on the processing

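Between glutamatergic and GABAergic nuclei 808 genes passed; the count was 2504 with DESeq2, 1747 and 1765 with limma (pseudocounts 1 and 10), 282 without set B, 51 in set A alone, 192 with sums per label and set, 191 in set B and 40 in set C with all labels and no block, and 609 to 801 without 1 vector label. Summed over the 3 glutamatergic contrasts there were 147 calls, where a gene counts in each contrast in which it passed. The number of calls was 1798 with DESeq2, 355 and 325 with limma, 229 with no filter and 53 without set B. It was 70 in set A alone, 82 with sums per label and set, 71 with at least 5 nuclei per sum and 322 with no replicate block. It was 72 without nuclei over 1% mitochondrial reads, 47 in set A with all labels and no block and 86 with exactly 1 subclass marker. Without 1 label it ran from 88 to 158. Over the 3 GABAergic contrasts there were 719 calls, summed in the same way. The number of calls was 4966 with DESeq2, 1847 and 1536 with limma, 393 without set B and 350 in set A alone. It was 206 with at least 5 nuclei per sum, 1143 with no replicate block and 135 in set C with all labels and no block. Without 1 label it ran from 425 to 691. For the class comparison, 790 genes passed with no replicate block (449 higher and 341 lower, against 408 and 400 with the vector-label pairing), the median log2 fold change of all genes moved from -0.27 to -0.079, and Camk4 passed at 3.03 in place of 4.57. Camk2a ranged from 2.09 to 2.45 and Camk2b from 0.92 to 1.19 without 1 label. The sign of Camk2g turned with no filter (0.0092), with 100000 reads and 1500 genes (0.021), in set B (0.36) and set C (0.074), and without 1 label its values ran from -0.15 to 0.13. Camk2d turned in set C (0.13) and Camkk2 in set A alone (-0.0046). The difference in Camk2 shares without set B was 12.7 points for Camk2a, -20.7 for Camk2d and -4.38 for Camk2g, none passing; as a mean of shares within nuclei in the 14 labels it was 12.7 for Camk2b, which passed. Without 1 label the ranges were 11.4 to 14.9, -20.8 to -15.8, -7.64 to -5.59 and, for Camk2b, 8.82 to 14.5. Fits with fewer labels or sets have fewer sums; other causes were not tested. Analyses within 1 set with all labels and without nuclei over 1% mitochondrial reads were chosen after seeing the data. Of 276 alternatives for single kinases, 232 kept direction and side of the threshold, 13 reversed, 16 lost the call and 15 gained one. Fits without 1 label gave 115 of those kept and no lost call. The other alternatives gave 117 of those kept and all 16 lost calls. Only Camk2a and Camk2b between classes and Camk2d between Cux2 and Foxp2 had a call to lose. Kinases without a call count as kept where they stayed without one.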

Other observations

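Of the pathway genes outside the 8 kinases, none of 41 passed between Cux2 and Rorb sums, where 0.0110% of all genes did. In the other comparisons, 2 of 41 passed between Cux2 and Foxp2 sums and 2 of 41 between Rorb and Foxp2. Among GABAergic subclasses 1 of 43 passed between Pvalb and Sst, 3 of 43 between Pvalb and Adarb2 and 1 of 43 between Sst and Adarb2. Of all genes tested, 0.878%, 0.724%, 1.83%, 3.53% and 1.12% passed in these last comparisons, in the order given. Their median log2 fold change was 0.48, 0.46, 0.48, 1.18 and 0.65, higher in the subclass named first. Pcp4, a small calmodulin-binding protein gene, was read in 80.0% of Foxp2 nuclei (66.3 to 90.0) and 10.7% of Cux2 nuclei (4.72 to 19.9), with a log2 fold change of -5.60 for Cux2 minus Foxp2 (SE 1.14, adjusted p = 0.00650 by edgeR's quasi-likelihood test). Mef2c, a transcription factor gene whose product is regulated by the CaMK cascade, was higher in Rorb than in Foxp2 sums (1.26, adjusted p = 0.0189). It was also higher in Pvalb than in Sst sums (1.14, adjusted p = 0.0425) and than in Adarb2 sums (1.44, adjusted p = 0.0412), the last little above the median of 1.18 for all genes. Without set B none of these passed: Pcp4 gave -3.92 (adjusted p = 0.662) and Mef2c 1.16 (adjusted p = 0.247), 1.05 (adjusted p = 0.168) and 1.49 (adjusted p = 0.0903). Without nuclei over 1% mitochondrial reads the adjusted p was 0.267 for Pcp4 and 0.191, 0.215 and 0.0726 for Mef2c, none of which passed. With at least 5 nuclei per sum none of the Mef2c calls was kept (adjusted p = 0.240, 0.390 and 0.201). With sums per label and set the adjusted p was 0.670 for Pcp4 and 0.371, 0.0746 and 0.0405 for Mef2c, so that only Mef2c between Pvalb and Adarb2 passed. Between Pvalb and Sst, Mef2c was also lost with no block (adjusted p = 0.0603) and with RLE factors (0.0667), which also ended the call between Pvalb and Adarb2 (0.0983). Between Rorb and Foxp2 it was lost with exactly 1 subclass marker (0.502). With limma on log2(CPM + 1), Mef2c did not pass between Rorb and Foxp2 (adjusted p = 0.0544).

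Gria1, the AMPA receptor subunit gene phosphorylated by CaMKII, was read in 90.5% of Pvalb nuclei (84.3 to 94.9) and 48.1% of Adarb2 nuclei (34 to 62.4). It was higher in Pvalb (2.36, SE 0.585, adjusted p = 0.0192) and in Sst sums (2.87, SE 0.587, adjusted p = 0.00618) than in Adarb2 sums. The median log2 fold change of all genes was 1.18 and 0.65 in these comparisons. The calcineurin regulator gene Rcan1 was read in 12.4% of Pvalb and 1.92% of Adarb2 nuclei and passed between them (adjusted p = 0.0363). Without set B the adjusted p was 0.0793 and 0.0596 for Gria1 against Adarb2 in Pvalb and Sst sums, and 0.0650 for Rcan1, none of which passed. With at least 5 nuclei per sum it was 0.268, 0.198 and 0.181, again none passing. Rcan1 had a read in 1 Adarb2 nucleus, and limma on log2(CPM + 1) did not pass it (0.94, adjusted p = 0.167).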
